A study of Rattus norvegicus with 12 samples.

Results

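The comparison set 3 arrays of cultures given epidermal growth factor (EGF) for 4 h against 3 arrays of sister control cultures. All were labelled as astrocytes of the optic nerve head of the rat, where the axons of the retina leave the eye. These 6 arrays, of 12 in the series, were chosen by their titles. The description field calls all 12 samples control cultures, the EGF ones included, so the groups and every direction below rest on the titles. The other 6 arrays, EGF and control at 12 h, entered the estimate of the spread, the filter on dim probe sets and 1 comparison of times. The groups shared everything that the labels give apart from EGF: primary culture from the optic nerve head of the rat, total RNA and an Affymetrix array. The dose of EGF, the strain, age and number of the animals, and whether the 3 replicates of a group came from separate cultures are not given in the labels. The replicates may be technical, and the p-values cover no more than the spread between the 12 arrays, those of 12 h included.

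EGF binds the receptor Egfr, a tyrosine kinase at the cell surface, which signals inward through Ras and the MAP kinase chain, through PI3 kinase and Akt, and through phospholipase C and calcium. Within minutes these chains switch on immediate early genes, many of which encode transcription factors or inhibitors of the same chains, and a second wave of genes follows over hours. In astrocytes the receptor is best known from injury and glaucoma, where its activity accompanies the change to a reactive state. The values below are the authors' MAS5 signals, 1 number per probe set and array on a linear scale, and differences are of log2(signal + 24.4), EGF minus control, each given with its standard error (SE).

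The label was checked against marker genes. Of 14 astrocyte markers 13 were on the array, and 6 of these (Gfap, Slc1a2, Aqp4, Aldh1l1, Pax2 and Fabp7) were too dim to be tested, with a mean over the 12 arrays under 215. Gfap, the intermediate filament that defines astrocytes, read 97.7 to 255.2 on the 6 arrays. The intermediate filament Vim read 60217.4 to 67875.1, the gap junction protein Gja1 56938.8 to 85279.8 and glutamine synthetase Glul 4968.3 to 7138.7. All 10 fibroblast markers were bright enough to be tested. The collagen genes Col1a1, Col1a2 and Col3a1 read 55444.1 to 82090.4, 64820.6 to 81597.5 and 73647.1 to 105645.0, while Lum (231.2 to 568.1) and Fap (153.6 to 543.7) lay near the limit. The cells are therefore called cultures here, and the astrocyte label was not borne out by Gfap and the other dim markers. The 13 astrocyte markers summed to 127542.4 to 139640.9 on the control arrays and 133174.0 to 161539.8 on the EGF arrays, and 0 of the 7 tested ones passed. Of these 7, Aldoc (26.9 to 260.0) and Slc1a3 (30.2 to 292.8) passed the filter of 215 only with the 12 h arrays included. Vim and Gja1 made up most of this sum. The 10 fibroblast markers summed to 258189.6 to 289028.4 on the control arrays and 226950.2 to 243013.6 on the EGF arrays, with 1 higher (Postn, a matrix protein, 0.54 ± 0.14, adjusted p = 0.0853 by limma without the replicate 3 pair) and 2 lower. Without that pair 0 were higher and 1 lower. The collagen genes made up most of the fibroblast sum. In bulk samples, fewer cells of a type and less RNA per cell cannot be told apart, and the part of cell makeup in the differences below was not tested.

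**Figure D1:**
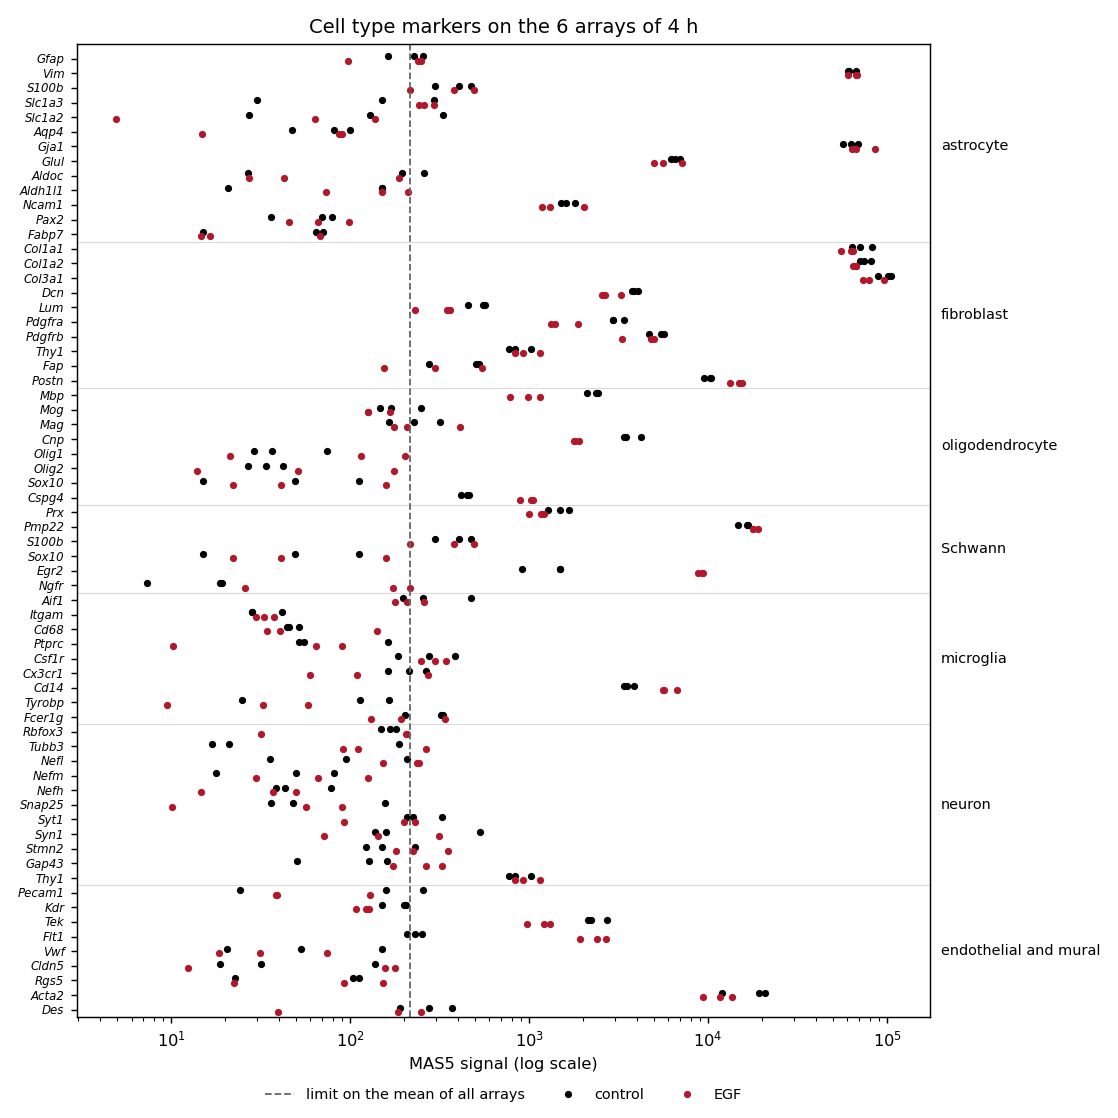
Signal of each astrocyte, fibroblast and other cell type marker on the 3 control and 3 EGF arrays of 4 h (log axis, 1 point per array). Gfap lies between 97.7 and 255.2 on every array, while Vim, Gja1 and the collagen genes lie at 55444.1 or above.

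The replicate 3 pair stood apart. Bacterial transcripts added before hybridisation gave a mean signal of 21217 on the EGF array and 23645 on the control array of replicate 3, against 49.6 to 111 on the other 10 arrays. This set holds 1 array of each group, so an effect of EGF can be taken inside it and inside replicates 1 and 2. The effects are compared at the end of this account, and counts without the pair are given where they differ by over 1.5-fold.

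At 4 h the response was broad and mostly small. Of 10261 genes tested (each by its brightest probe set), 1318 were higher with EGF (12.8%) and 2011 lower (19.6%), by limma with Benjamini-Hochberg adjustment over 18625 probe sets at a threshold of 0.05. Of the 3329 genes called, 3278 (98.5%) had 3 EGF arrays that did not overlap the 3 control arrays, against 52.7% of all genes tested. The rises were fewer than the falls but reached further. Of the rises, 172 (13.1%) exceeded 4-fold and 445 lay between 2-fold and 4-fold. Of the falls, 76 (3.78%) exceeded 4-fold, 599 lay between 2-fold and 4-fold and 957 (47.6%) between 1.5-fold and 2-fold. Called changes under 1.5-fold numbered 231 rises and 379 falls.

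The balance of rises and falls depended on how the arrays were scaled. The deposited signals have a common trimmed mean, and on that scale the median log2 difference over genes was -0.17, with a median SE of 0.20. With each array centred on its median, the median over probe sets moved from -0.15 to -0.04, and the share of rises among the called probe sets went from 40.8% (2118 higher, 3068 lower) to 53.1% (2477 higher, 2189 lower). With quantile normalization it was 47.3%. Counts for gene groups below are therefore to be read against the background of 12.8% higher and 19.6% lower and a median of -0.17. This holds for lists and subgroups where the background is not repeated. Brightness also mattered to what could be called. In the 2566 dimmest genes, with mean signals of 215.5 to 807.7, 5.49% were higher and 13.1% lower at a median SE of 0.339. For mean signals of 808.5 to 1943.5 these shares were 11.8% and 24.4%, and for 1943.5 to 4599.6 they were 16.3% and 23.9%. In the 2565 brightest, from 4600.1 up, 17.8% were higher and 17% lower at a median SE of 0.153. The median log2 difference was -0.259 in the dimmest genes and -0.086 in the brightest. The background was not matched to the brightness of a list. With the filter at the 60th percentile, 76 of 81 transcription machinery and 76 of 79 splicing genes stayed. So did 48 of 70 DNA repair, 44 of 56 cilium, 51 of 58 fatty acid oxidation and 42 of 46 tricarboxylic acid cycle genes. The part of brightness in the list counts was not tested.

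Egfr itself, the receptor of the ligand added, read 5095.2, 5673.5 and 5966.8 on the control arrays and 8939.1, 8075.2 and 7316.8 on the EGF arrays. All EGF arrays lay above all control arrays, with the smallest difference in the replicate 3 pair. The log2 difference was 0.54 ± 0.13 (adjusted p = 0.00924, limma), and another probe set of Egfr gave 0.55 and did not pass (adjusted p = 0.19).

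The rises ranked 11 to 20 among called genes without overlap belonged to genes of several kinds. Rgs2, which shortens signalling by G proteins of the Gq class, read 548.6, 684.3 and 855.8 on the control arrays and 17693.9, 19453.4 and 21200.1 on the EGF arrays. The log2 difference was 4.77 ± 0.25 (adjusted p = 2.11e-08, limma). Hmga1, an architectural chromatin protein that bends AT-rich DNA, read 552.2, 633.9 and 757.2 on the control arrays and 22310.7, 22182.1 and 15443.2 on the EGF arrays, a difference of 4.89 ± 0.30. Its EGF array of replicate 3 was the lowest of the 3, and the effect of that pair was 4.31 against 5.18 in replicates 1 and 2. Ptgs2, the inducible cyclooxygenase that starts prostaglandin synthesis, read 1697.8, 1364.6 and 2442.8 on the control arrays and 35845.1, 37847.7 and 46466.7 on the EGF arrays (4.46 ± 0.22). The highest control array was thus far below the lowest EGF array.

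Dusp5, a nuclear phosphatase that inactivates the MAP kinase ERK, read 415.7, 247.7 and 445.7 on the control arrays and 11266.1, 11014.3 and 8168.8 on the EGF arrays (4.72 ± 0.21). Sgk1, a kinase activated by the PI3 kinase chain that regulates ion channels, read 639.3, 793.4 and 825.0 on the control arrays and 12971.4, 13438.7 and 15562.9 on the EGF arrays (4.18 ± 0.19). In both genes the control arrays lay far below the EGF arrays. S1pr3, a receptor for sphingosine 1-phosphate, read 810.1, 423.3 and 691.4 on the control arrays and 11392.5, 13937.0 and 11756.5 on the EGF arrays (4.26 ± 0.42). Pkp1, a plaque protein of desmosomes, read 706.9, 708.6 and 972.3 on the control arrays and 18918.5, 19064.7 and 13734.6 on the EGF arrays (4.39 ± 0.17), and its EGF array of replicate 3 was again the lowest. Dok5, an adaptor of receptor tyrosine kinases, rose by 4.51. Nptx1, a secreted pentraxin, and Plet1, a surface protein of epithelial progenitors, started near background, with 24.9, 23.7 and 47.1 and 31.8, 62.1 and 25.1 on the control arrays. Their differences of 4.95 ± 0.28 and 4.17 ± 0.33 depend on the offset added before log2 and were 3.80 and 3.14 with an offset of 96.8.

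The falls ranked 11 to 20 started from well measured levels. Ccng2, a cyclin that is high in resting cells, read 4882.0, 4692.8 and 5925.3 on the control arrays and 526.6, 515.5 and 571.1 on the EGF arrays and fell by 3.20 ± 0.14 on the log2 scale (adjusted p = 4.5e-09, limma). Pik3ip1, an inhibitor of PI3 kinase at the membrane, read 8877.0, 8869.6 and 7334.6 on the control arrays and 847.0, 848.4 and 1044.1 on the EGF arrays and fell by 3.16 ± 0.15. Dhrs3, which reduces retinal to retinol, read 5350.6, 5154.3 and 4905.9 on the control arrays and 388.0, 587.9 and 654.0 on the EGF arrays and fell by 3.22 ± 0.19. In each of these 3 genes the EGF arrays lay far below the control arrays, without overlap.

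Fos, the founding member of the AP-1 family, read 6096.0, 4591.6 and 7601.6 on the control arrays and 778.5, 784.6 and 764.5 on the EGF arrays. The EGF arrays were nearly alike and the control arrays spread more widely, and the difference was -2.91 ± 0.19. Nppc, the C-type natriuretic peptide, read 3416.0, 3416.3 and 2715.1 on the control arrays and 521.5, 353.0 and 394.8 on the EGF arrays (-2.85 ± 0.60). Smad9, a transcription factor of the bone morphogenetic protein chain, read 1423.9, 1355.6 and 1541.9 on the control arrays and 243.0, 199.2 and 125.5 on the EGF arrays (-2.82 ± 0.26). Lims2, which links integrins to actin (-2.98), and Fam107a, a stress-responsive actin binding protein (-2.95), fell without overlap as well. Lpin1, a phosphatidate phosphatase, ended near background at 32.0, 61.5 and 37.9 (-2.84 ± 0.27, and -1.98 with an offset of 96.8). Actmap, an actin maturation protease, was the least even of the 10, since its EGF arrays read 272.2, 52.3 and 37.1 (-2.93 ± 0.45).

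**Figure D2:**
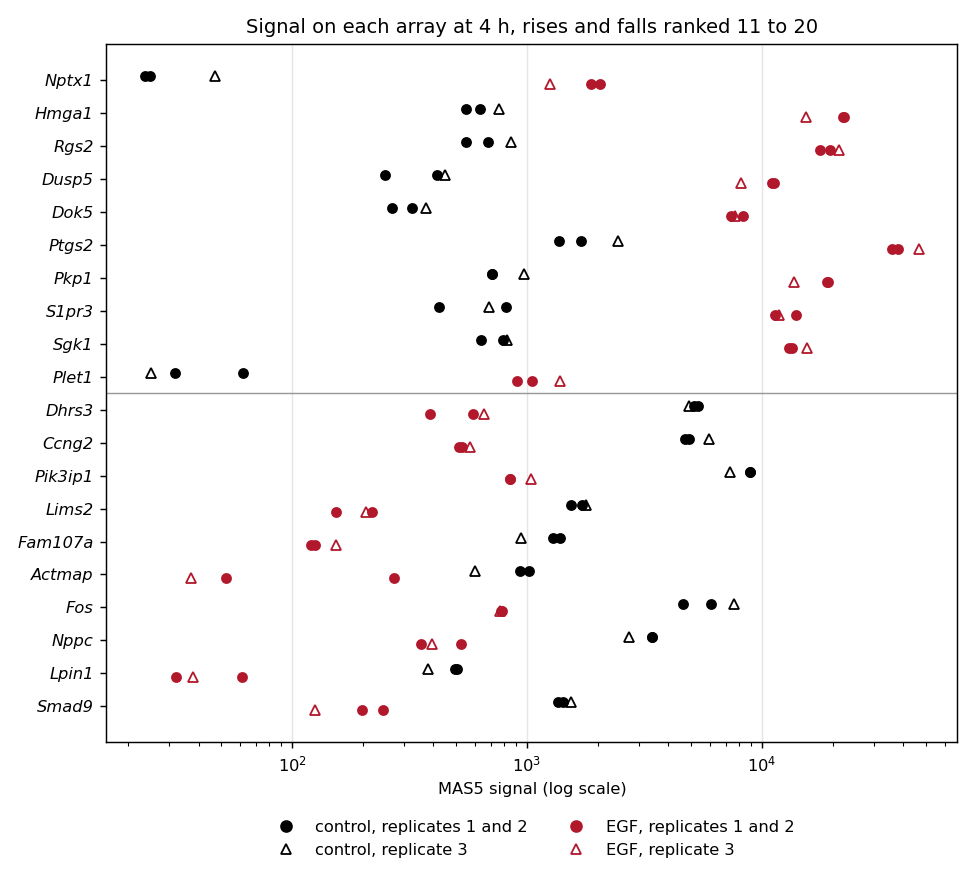
Signal on each of the 3 control and 3 EGF arrays of 4 h for the rises and the falls ranked 11 to 20 (log axis, 1 point per array). Control and EGF arrays do not overlap for any of the 20 genes, which was part of the rule that chose them.

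Promoters are shown for genes of both directions because they put known binding motifs beside the measured changes. RefSeq start sites on the rat assembly GRCr8 were matched for 8571 of the 10261 genes and not for 1690, and the 250 bases before each start were searched on both strands. The first pair holds TGANTCA, the letters that AP-1 is known to bind, and belongs to the 2 called rises of largest size with that motif. Serpinb2, an inhibitor of plasminogen activators, rose by 8.22 ± 0.24, and Fam110c, a protein of the cell cortex and spindle pole, by 5.11 ± 0.46. The stretches are chr13:24055792-24055878 (+ strand) and chr6:53365829-53365915 (+ strand), 5′ to 3′ with the motif in capitals.
Serpinb2: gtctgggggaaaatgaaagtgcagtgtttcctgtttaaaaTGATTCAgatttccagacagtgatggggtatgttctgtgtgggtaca
Fam110c: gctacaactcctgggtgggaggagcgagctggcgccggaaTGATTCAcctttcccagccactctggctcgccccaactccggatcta

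The second pair holds the CArG box, known to be bound by serum response factor, and belongs to the largest rises with that motif. Dusp5 carries 2 of these boxes side by side, the one starting at -82 and the other at -72 from the start site. Egr2, a zinc finger factor of the immediate early class that is also a marker of myelinating Schwann cells, read 1485.8, 909.3 and 1494.7 on the control arrays and 9349.4, 8736.0 and 9245.0 on the EGF arrays and rose by 2.82 ± 0.22. The stretches are chr1:262543652-262543751 (+ strand) and chr20:21054475-21054564 (- strand), with the boxes in capitals.
Dusp5: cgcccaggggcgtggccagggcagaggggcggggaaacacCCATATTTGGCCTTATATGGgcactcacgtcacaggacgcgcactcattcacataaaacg
Egr2: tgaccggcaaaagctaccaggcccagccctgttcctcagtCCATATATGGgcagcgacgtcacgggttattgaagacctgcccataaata

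The third pair holds GTAAACA, known to be bound by forkhead factors of the FoxO kind, and belongs to the largest falls with that motif. They are Dhrs3 and Ccdc28a, a coiled-coil gene (-2.21 ± 0.24), at chr5:162031714-162031800 (+ strand) and chr1:14692490-14692569 (- strand), with the motif in capitals.
Dhrs3: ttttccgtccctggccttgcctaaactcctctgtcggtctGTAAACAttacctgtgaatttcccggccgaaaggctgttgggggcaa
Ccdc28a: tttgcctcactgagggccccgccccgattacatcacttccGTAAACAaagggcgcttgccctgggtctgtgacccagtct

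Counted over genes, TGANTCA was in 8.02% of the 511 promoters of genes higher by at least 2-fold and in 4.69% of the 554 of genes lower by at least 2-fold. In called changes under 2-fold it was in 3.21% of the 591 promoters of rises and 3.46% of the 1127 of falls, both under the share of tested genes. It was in 4.35% of all promoters of tested genes and in 6.36% of all 27457 promoters of the table. The CArG box was in 0.978% of the promoters of the rises of at least 2-fold, below the 1.27% of tested genes and the 1.5% of all promoters. GTAAACA was in 3.25% of the promoters of the falls and 2.35% of those of the rises of at least 2-fold, in 1.33% of falls and 1.18% of rises under 2-fold, in 2% of tested genes and in 3.25% of all promoters. The E-box CACGTG was in 9.98% of the rises and 9.03% of the falls of that size against 8.6% of tested genes and 5.79% of all promoters. The cyclic AMP response element TGACGTCA was in 3.72% and 2.71% against 3.12% and 1.7%. These shares are descriptions of letters in a window and were not tested.

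Gene lists were then read in the order of the cell's signal flow, from receptors to the nucleus and on to metabolism and structure. Over 28 lists, 1448 distinct genes were tested, of which 233 were higher and 271 lower. The lists and their members were chosen with earlier results of these data known. Subgroups named within a list below were chosen after their values were seen. The counts are therefore descriptions and no independent test of a list. A fit that blocks on the set of arrays made more calls in most lists. The lower members went from 16 to 31 among chromatin genes, from 21 to 32 among ubiquitin genes, from 13 to 26 among microtubule genes, from 5 to 9 among nuclear receptors and from 7 to 12 in the MAP kinase chain.

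**Figure D3:**
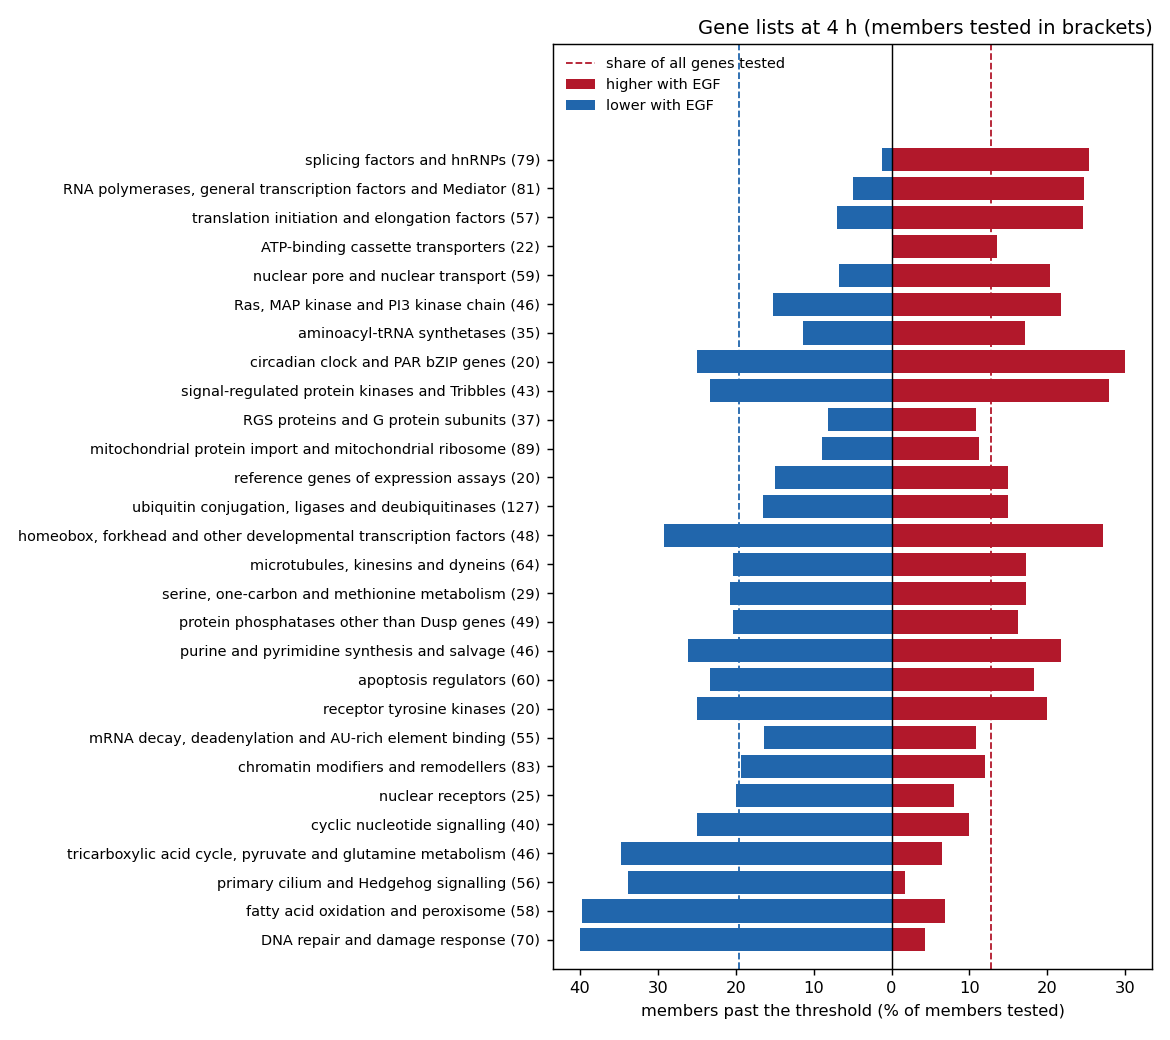
Share of the tested members of each of 28 gene lists that were higher or lower with EGF at 4 h, in percent. The dashed lines mark the background of 12.8% higher and 19.6% lower over all genes tested, and DNA repair, fatty acid oxidation, the primary cilium and the tricarboxylic acid cycle lists reach furthest to the lower side.

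Among receptor tyrosine kinases, 32 of 36 were on the array and 20 were bright enough to test. Of these 4 rose (20%), 5 fell (25%) and 11 passed in neither direction, with a median of -0.10. The background was 12.8% higher and 19.6% lower. The fibroblast growth factor receptors moved in different directions. Fgfr3 read 43107.5, 49499.6 and 56211.5 on the control arrays and 19128.8, 16202.9 and 17765.1 on the EGF arrays and fell by 1.48 ± 0.22, and Fgfr2 read 4816.7, 4255.4 and 5284.5 on the control arrays and 2036.8, 1670.3 and 1962.2 on the EGF arrays and fell by 1.33 ± 0.14. Fgfr1 read 4197.5, 3996.7 and 3239.8 on the control arrays and 6670.4, 6979.1 and 5105.8 on the EGF arrays and rose by 0.71 ± 0.19. In all 3 genes the EGF and control arrays were free of overlap.

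Flt1, a receptor of vascular endothelial growth factor, read 207.7, 251.8 and 230.8 on the control arrays and 2406.7, 2698.8 and 1930.3 on the EGF arrays (3.21 ± 0.39), while another probe set of it gave 0.72 and did not pass (adjusted p = 0.407). Axl, a receptor of the ligand Gas6, read 9836.5, 9097.7 and 8396.7 on the control arrays and 25254.0, 26415.4 and 25964.4 on the EGF arrays (1.51 ± 0.12). Pdgfra, the platelet-derived growth factor receptor of fibroblasts and glial progenitors, fell by 1.01 ± 0.15, and Tek, the angiopoietin receptor, fell by 1.00 ± 0.19. Flt1 and Tek are also endothelial markers, and Pecam1, Kdr, Vwf and Cldn5 of the same list were dim.

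In the Ras, MAP kinase and PI3 kinase chain itself, 10 of 46 members rose (21.7%) and 7 fell (15.2%). The background was 12.8% and 19.6%, and the median of the list was -0.06. Map2k3, the kinase that activates p38, read 6426.6, 6849.7 and 6908.3 on the control arrays and 23663.2, 25452.4 and 26471.8 on the EGF arrays (1.90 ± 0.16). Its partner Map2k6, which activates the same target, read 367.0, 464.6 and 206.3 on the control arrays and 175.3, 132.2 and 34.2 on the EGF arrays (-1.53 ± 0.45) and lost the call in 4 of the 18 alternative fits. Rasa1, which returns Ras to its inactive form, rose by 1.67 ± 0.19, and Mapk7, the kinase ERK5, by 1.39 ± 0.27. Gab1 and Irs2, docking proteins that recruit PI3 kinase, fell by 1.32 ± 0.20 and 1.07 ± 0.18, and the regulatory subunit Pik3r3 fell by 1.34 ± 0.43. The catalytic subunit Pik3cd rose by 2.11 ± 0.39, where the replicate 3 pair gave 0.66 and replicates 1 and 2 gave 2.83, and its other probe set gave 0.45 without passing (adjusted p = 0.34, limma). The count of lower members was 4 without the replicate 3 pair, with median centring, and on leaving out EGF replicate 1, 2 or 3 or control replicate 1 or 2 alone.

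Of the kinases and pseudokinases regulated by signals, 12 of 43 rose (27.9%) and 10 fell (23.3%), with a median of 0.14. The rises were above the background of 12.8%, and the falls lay near that of 19.6%. Trib1, a pseudokinase that brings proteins to a ubiquitin ligase, read 529.1, 420.0 and 522.3 on the control arrays and 2134.9, 2238.1 and 2755.8 on the EGF arrays (2.22 ± 0.41). Its relative Trib2 rose by 1.54 ± 0.12 and the stress-induced Trib3 fell by 1.07 ± 0.35, so the family did not move as one. Ripk2, a kinase of innate immune receptors, read 1554.1, 1606.9 and 2008.2 on the control arrays and 8996.9, 8947.6 and 10528.7 on the EGF arrays (2.45 ± 0.21). The salt-inducible kinases Sik2 (1.80) and Sik1 (0.86) and protein kinase C alpha (Prkca, 1.55) also rose. Ulk1, which starts autophagy, read 2275.7, 2100.9 and 1780.9 on the control arrays and 891.2, 729.7 and 637.8 on the EGF arrays and fell by 1.42 ± 0.18. Lats2 of the Hippo chain (-1.24) and the catalytic subunit of AMP kinase Prkaa1 (-0.71) fell as well. With median centring 6 members were lower in place of 10.

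Protein phosphatases outside the Dusp family lay near the background, with 8 of 49 higher and 10 lower (median 0.06). Ppp2r1b, a scaffold subunit of phosphatase 2A, read 1476.8, 1488.3 and 1635.5 on the control arrays and 5175.8, 5392.7 and 5611.7 on the EGF arrays (1.80 ± 0.18), and Ptpn21, a tyrosine phosphatase of the cytoskeleton, read 3003.9, 3216.0 and 2251.9 on the control arrays and 946.6, 858.4 and 687.5 on the EGF arrays (-1.73 ± 0.17). Ppp1r15a, which directs phosphatase 1 to the translation factor eIF2, rose by 1.40 ± 0.17.

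G protein subunits and their regulators were read apart, and the difference between them was not tested. Of 37 tested genes 4 rose and 3 fell, the falls below the background. Lower members were 5 without the replicate 3 pair, without EGF replicate 3 and without EGF 12 h replicate 3. Of the 19 listed G protein subunits 0 rose and 2 fell, and the highest value among them was 0.43. Of the 10 regulators of G protein signalling 3 rose and 0 fell. Besides Rgs2, Rgs17 read 1171.6, 1449.0 and 1400.8 on the control arrays and 4946.3, 5394.7 and 6939.0 on the EGF arrays (2.07 ± 0.24) and Rgs16 read 101.8, 74.0 and 148.0 on the control arrays and 936.7, 1348.8 and 1494.3 on the EGF arrays (3.29 ± 0.54). Gpsm1, which holds inactive G proteins, fell by 1.29 ± 0.25.

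Cyclic nucleotide genes were near the background, with 4 of 40 higher and 10 lower (median -0.10). Lower members were 6 without the replicate 3 pair and without EGF replicate 1, and 7 were higher without EGF 12 h replicate 3. Pde4b, which breaks down cyclic AMP, read 4213.6, 3185.4 and 3956.4 on the control arrays and 633.3, 794.7 and 797.9 on the EGF arrays and fell by 2.31 ± 0.18 (adjusted p = 8.32e-07, limma). Of the 11 listed phosphodiesterases 5 fell and 0 rose, against 19.6% and 12.8% of all genes. The partners of the nitric oxide receptor, Gucy1a1 and Gucy1b1, which make cyclic GMP together, fell by 1.53 ± 0.19 and 1.52 ± 0.26. Gucy1a1 read 5731.9, 6289.6 and 4799.7 on the control arrays and 1724.1, 1893.3 and 2124.7 on the EGF arrays. Gucy1b1 read 1690.6, 2078.9 and 2389.9 on the control arrays and 689.4, 568.2 and 842.3 on the EGF arrays, so that both genes fell to a similar fraction of their control level. Akap12, a scaffold that holds protein kinase A and C at the membrane, read 5924.0, 6193.4 and 6071.7 on the control arrays and 37656.0, 42491.6 and 40718.8 on the EGF arrays (2.73 ± 0.11), and its relative Akap5 fell by 1.82 ± 0.58. The natriuretic peptide receptors Npr2 (-0.70) and Npr3 (-0.94) fell with their ligand Nppc.

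Among nuclear receptors 2 of 25 rose (8%) and 5 fell (20%), against 12.8% and 19.6% of all genes (median -0.21). Of the 42 on the array 17 were too dim to test. Higher members were 1 without the replicate 3 pair and on leaving out EGF replicate 1 or 2 or control replicate 1 or 3 alone. Both thyroid hormone receptors were lower. Thrb read 3052.9, 3101.3 and 3540.4 on the control arrays and 958.7, 660.4 and 817.1 on the EGF arrays (-1.97 ± 0.16), and Thra fell by 0.88 ± 0.24. Nr2f1, an orphan receptor of neural development, read 1305.3, 1304.6 and 876.0 on the control arrays and 460.3, 299.6 and 208.0 on the EGF arrays (-1.82 ± 0.30), and the mineralocorticoid receptor Nr3c2 fell by 1.40 ± 0.20. Esrra, a regulator of mitochondrial genes, rose by 0.80 ± 0.18.

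Clock genes changed on both sides of the loop. Of 20 tested members 6 rose (30%) and 5 fell (25%), with a median of 0.10. The rises were above the background of 12.8%, and the falls lay near that of 19.6%. Bhlhe40 and Bhlhe41 are close relatives that repress the same clock targets. Bhlhe40 read 1364.6, 985.5 and 987.5 on the control arrays and 6455.5, 8185.3 and 6014.2 on the EGF arrays (2.61 ± 0.32), and Bhlhe41 read 1767.1, 1661.3 and 1441.4 on the control arrays and 362.8, 329.2 and 364.0 on the EGF arrays (-2.13 ± 0.17), so the relatives moved in opposite directions. The activator Bmal1 rose by 1.08 ± 0.21, the repressor Cry1 by 1.23 ± 0.17 and Per2 by 0.61 ± 0.16, while the repressor Nr1d2 fell by 1.24 ± 0.14. Dbp, a factor of the PAR bZIP family driven by the clock, read 2872.7, 2221.3 and 2102.0 on the control arrays and 532.3, 492.5 and 224.6 on the EGF arrays (-2.53 ± 0.30), and its relative Tef fell by 1.07 ± 0.16.

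Developmental transcription factors were called more often than the background in both directions, 13 higher and 14 lower of 48 (median -0.14). Runx1, a factor of blood and wound programmes, read 1236.5, 1057.1 and 1543.5 on the control arrays and 3643.0, 3787.1 and 6034.0 on the EGF arrays (1.77 ± 0.19). The mesenchymal factors Twist1 (1.31 ± 0.16), Snai1 (1.04 ± 0.30) and Zeb1 (0.65 ± 0.18) were higher. Twist2 rose by 2.68 ± 0.70, from uneven control arrays of 435.3, 41.8 and 199.6, and lost the call without the replicate 3 pair (adjusted p = 0.0726, limma). Pax6, an eye and forebrain factor, ended near background at 10.7, 78.4 and 37.2 (-1.98 ± 0.45, and -1.20 with an offset of 96.8). It passed the filter of 215 only with the 12 h arrays included. Foxn3 (-1.82), Tbx18 (-1.68), Emx2 (-1.12) and Nfia (-0.96), the last of which starts the astrocyte programme in development, fell. Without the replicate 3 pair 6 members were higher in place of 13.

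Chromatin genes were near the background, with 10 of 83 higher and 16 lower (median -0.20). The Tet genes, whose products oxidise methylcytosine, differed in direction. Tet1 read 453.6, 400.4 and 627.1 on the control arrays and 139.6, 142.2 and 137.0 on the EGF arrays (-1.64 ± 0.28) and Tet2 1881.1, 1587.1 and 1511.3 on the control arrays and 930.4, 713.4 and 907.2 on the EGF arrays (-0.95 ± 0.18). Tet3 read 1414.1, 1493.3 and 1463.4 on the control arrays and 3399.8, 3133.2 and 1912.4 on the EGF arrays (0.90 ± 0.20), with the smallest rise in replicate 3. The methyltransferases Ezh1 (-0.74) and Ezh2 (-0.77) of Polycomb fell, and the demethylase Kdm1a (1.14) and the arginine methyltransferase Prmt5 (0.64) rose. Leaving out EGF replicate 2 gave 10 lower members.

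The machinery of transcription leaned up. Of 81 genes of RNA polymerases, general factors and Mediator, 20 rose and 4 fell, against 12.8% and 19.6% of all genes, and the median was 0.16 against -0.17. All 8 tested subunits of RNA polymerase I, which makes ribosomal RNA, lay above 0, and 6 rose. Polr1b read 900.7, 805.9 and 710.5 on the control arrays and 3584.0, 3152.6 and 2129.4 on the EGF arrays (1.82 ± 0.21), Polr1g 561.8, 681.5 and 517.3 on the control arrays and 2324.6, 2351.2 and 1484.6 on the EGF arrays (1.74 ± 0.25) and Polr1e 575.1, 586.9 and 712.4 on the control arrays and 1546.9, 2488.2 and 2233.3 on the EGF arrays (1.68 ± 0.23). Of 8 subunits of RNA polymerase III, which makes transfer RNA, 3 rose and 0 fell. Of 12 listed subunits of RNA polymerase II, which makes messenger RNA, 2 rose and 1 fell. The latter was Polr2a, the largest subunit (-0.96 ± 0.28), which lost the call when 1 of 4 single arrays was left out (adjusted p up to 0.0991, limma). Taf4b, a component of TFIID, read 403.1, 390.6 and 360.1 on the control arrays and 1582.3, 1595.6 and 1169.7 on the EGF arrays (1.84 ± 0.21). Med31 fell by 1.15 ± 0.14, while its other probe set gave 0.19 and did not pass (adjusted p = 0.881). Blocking on the set of arrays gave 33 higher and 12 lower. Lower members were 8 without EGF 12 h replicate 3, 1 without EGF replicate 2, and 2 without the replicate 3 pair, EGF replicate 1, control replicate 1 or control replicate 3. The lower count ranged down to 1, without EGF replicate 2, when single arrays were left out.

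Splicing genes leaned up with few exceptions among those called. Of 79 tested, 20 rose (25.3%) and 1 fell (1.27%), against 12.8% and 19.6% of all genes. The median was 0.21, and 0.31 with median centring. The rises were modest, the largest being Sfpq at 0.95 ± 0.12, a paraspeckle protein that read 6180.3, 5983.1 and 5735.5 on the control arrays and 11982.7, 12071.7 and 10725.9 on the EGF arrays. Its partner in paraspeckles Pspc1 read 2064.1, 1545.6 and 2871.6 on the control arrays and 3918.3, 3469.3 and 4533.8 on the EGF arrays (0.91 ± 0.21). U2af1 (0.94) and U2af2 (0.56), which together mark the 3′ splice site, both rose. Among 13 listed hnRNP genes, which coat new transcripts, 6 rose and 0 fell, with Hnrnpf the highest (0.90 ± 0.25). Rbm5, a splicing regulator linked to cell death, was the exception at -0.89 ± 0.17, and another of its probe sets did not pass (adjusted p = 0.238). Blocking on the set of arrays gave 33 higher and 11 lower. Lower members were 7 without EGF 12 h replicate 3, and 2 without the replicate 3 pair, EGF replicate 3, control replicate 1 or control replicate 2.

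Genes of messenger RNA decay were nearer the background, at 6 of 55 higher and 9 lower (median 0.06). Of the 7 listed subunits of the CCR4-NOT deadenylase 4 fell and 0 rose, with Cnot4 the lowest (-0.52 ± 0.16). Another tested subunit that the list did not hold, Cnot11, rose (0.47 ± 0.14), while Cnot9 (0.25 ± 0.16) and Cnot10 (-0.22 ± 0.23) did not pass; these 3 were added after their values were seen. Zfp36l2, which binds AU-rich elements, read 24689.0, 24047.1 and 20652.7 on the control arrays and 52843.1, 54768.2 and 52174.6 on the EGF arrays (1.21 ± 0.14), although its 2 other tested probe sets did not pass. Pan2, another deadenylase, read 1394.7, 1235.5 and 1256.5 on the control arrays and 654.8, 615.4 and 619.5 on the EGF arrays (-1.01 ± 0.17), where the other probe set gave -0.01 (adjusted p = 0.987). Lower members numbered 4 without the replicate 3 pair, 4 without EGF replicate 2, and 5 with median centring, without control replicate 2 or without control replicate 3.

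Translation factors also leaned up, with 14 of 57 higher (24.6%) and 4 lower (7.02%), against 12.8% and 19.6% of all genes (median 0.11). Eif4e, which binds the cap of messenger RNA, read 11366.0, 12900.3 and 11427.0 on the control arrays and 23062.5, 22373.5 and 28229.6 on the EGF arrays (1.04 ± 0.12). Eif2b3, part of the exchange factor that recycles eIF2, read 1571.6, 1532.2 and 1999.2 on the control arrays and 4100.6, 4218.5 and 4448.3 on the EGF arrays (1.32 ± 0.25), and the helicase Eif4a1 rose by 0.79 ± 0.20. Eef2k, a kinase that slows elongation, read 1503.5, 1748.9 and 1774.4 on the control arrays and 709.0, 381.0 and 547.4 on the EGF arrays and fell by 1.61 ± 0.22. Aminoacyl-tRNA synthetases were nearer the background, with 6 of 35 higher and 4 lower. Yars1, of the cytoplasm, rose by 1.04 ± 0.18 and Fars2, of mitochondria, fell by 1.14 ± 0.25. Blocking on the set of arrays gave 22 higher translation factors, and 2 were lower without the replicate 3 pair and on leaving out EGF replicate 1 or 3 or control replicate 1 or 2 alone.

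Mitochondrial import and the mitochondrial ribosome were read apart, and the difference between them was not tested. Over the list 10 of 89 rose and 8 fell, the falls below the background. Of 22 listed translocase proteins of the Timm and Tomm families 7 rose and 1 fell. Timm10, a chaperone of the space between the membranes, read 2261.7, 2644.1 and 2377.6 on the control arrays and 6857.1, 6596.1 and 5842.2 on the EGF arrays (1.40 ± 0.16). Of 49 listed mitochondrial ribosomal proteins 3 rose and 5 fell (median -0.10). The largest fall was Mrpl14 (-1.21 ± 0.33), which lost the call without the replicate 3 pair (adjusted p = 0.0605, limma). Over the list, the fit without EGF 12 h replicate 3 gave 17 higher and 15 lower. The lower count was 5 without the replicate 3 pair and without control replicate 2.

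Nuclear transport leaned up, with 12 of 59 higher (20.3%) and 4 lower (6.78%), against 12.8% and 19.6% of all genes (median 0.20). Ipo5, an importin that carries ribosomal proteins, read 5869.4, 5206.5 and 4905.2 on the control arrays and 23855.7, 25598.5 and 23853.2 on the EGF arrays (2.20 ± 0.25), and its other probe set gave 2.71 without passing (adjusted p = 0.0859). Kpnb1, the main import receptor, read 4972.5, 4979.5 and 5048.9 on the control arrays and 8645.4, 9400.9 and 9356.7 on the EGF arrays (0.87 ± 0.10), and the small GTPase Ran rose by 0.67 ± 0.16. Of 15 importins and karyopherins 5 rose and 0 fell. Xpo1, the main export receptor, read 5132.0, 4399.7 and 4931.8 on the control arrays and 3106.1, 2729.6 and 2344.1 on the EGF arrays and fell by 0.82 ± 0.15. Aaas, a nucleoporin, fell by 0.86 ± 0.29 and lost the call in 8 of the 18 alternative fits. Lower members were 2 without the replicate 3 pair, EGF replicate 3, control replicate 1 or control replicate 2.

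**Figure D4:**
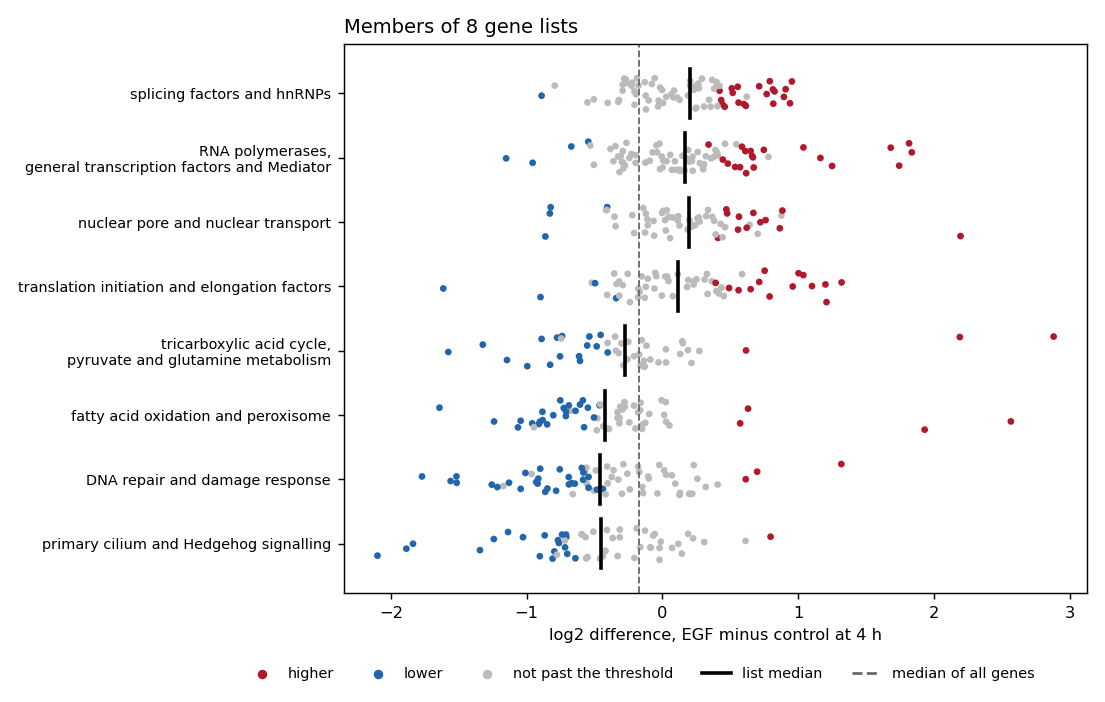
Log2 difference at 4 h (EGF minus control, on the scale of log2(signal + 24.4)) of each tested member of 8 lists described as leaning up or down. Each point is 1 gene, and a bar marks the list median. Medians run from -0.46 for DNA repair to 0.21 for splicing, and single members of the lists that leaned down reach 2.88.

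Nucleotide synthesis was mixed, with 10 of 46 higher (21.7%) and 12 lower (26.1%), against 12.8% and 19.6% of all genes (median -0.11). Ppat, which commits phosphoribosyl pyrophosphate to purines, read 906.0, 1149.5 and 1321.0 on the control arrays and 3490.1, 3263.1 and 3535.0 on the EGF arrays (1.60 ± 0.22). Uck2, a uridine kinase of salvage, rose by 1.18 ± 0.20. Upp1, uridine phosphorylase, read 29.2, 56.4 and 97.5 on the control arrays and 498.4, 730.9 and 1294.4 on the EGF arrays (3.32 ± 0.55, and 2.50 with an offset of 96.8), with control arrays near background. Ampd3, which deaminates AMP, read 207.7, 263.4 and 401.1 on the control arrays and 143.1, 95.9 and 92.1 on the EGF arrays, a fall that did not pass with the replicate number as a block (adjusted p = 0.0528, limma) or without the replicate 3 pair. Ampd3 passed the filter of 215 only with the 12 h arrays included. Dck, which salvages deoxynucleosides, fell by 1.00 ± 0.23, and Xdh, which makes uric acid, by 0.85 ± 0.17. Lower members were 6 without the replicate 3 pair and with median centring, 7 without EGF replicate 3 and 5 without control replicate 2.

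In serine, one-carbon and methionine metabolism 5 of 29 rose (17.2%) and 6 fell (20.7%), near the background of 12.8% and 19.6% (median -0.05). Mtap, which salvages methionine from the side product of polyamine synthesis, read 3904.1, 3893.4 and 3434.1 on the control arrays and 19239.3, 19798.6 and 17653.0 on the EGF arrays (2.33 ± 0.13). Mat2a, which makes S-adenosylmethionine, rose by 1.10 ± 0.13, and its regulatory partner Mat2b fell by 1.16 ± 0.13. Gclc, the limiting enzyme of glutathione synthesis, read 18243.1, 17733.0 and 18866.8 on the control arrays and 6927.7, 5749.5 and 6918.6 on the EGF arrays and fell by 1.49 ± 0.11 (adjusted p = 5.67e-07, limma).

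The tricarboxylic acid cycle, pyruvate and glutamine list leaned down, with 3 of 46 higher and 16 lower, against 12.8% and 19.6% of all genes, and a median of -0.27 against -0.17. Idh1, cytoplasmic isocitrate dehydrogenase, read 12158.9, 12696.7 and 13726.1 on the control arrays and 5999.3, 5204.5 and 6231.1 on the EGF arrays and fell by 1.15 ± 0.13. Pyruvate carboxylase Pc fell by 1.32 ± 0.36, and the mitochondrial pyruvate carrier genes Mpc1 and Mpc2 by 0.61 ± 0.16 and 0.45 ± 0.15. Of the 3 rises, which went against the list, 2 were over 4-fold. Pdp1, the phosphatase that activates pyruvate dehydrogenase, read 2654.8, 2537.8 and 3006.5 on the control arrays and 19781.0, 19681.6 and 21330.4 on the EGF arrays (2.88 ± 0.15). Pdk2, a kinase that inactivates the same enzyme, read 2100.8, 1660.2 and 1644.3 on the control arrays and 650.0, 610.8 and 500.4 on the EGF arrays (-1.58 ± 0.16), although its other probe set did not pass (adjusted p = 0.266). Bcat1, the cytoplasmic transaminase of branched-chain amino acids, read 5896.1, 4835.5 and 4464.2 on the control arrays and 23108.2, 23753.4 and 22318.0 on the EGF arrays (2.19 ± 0.18), while the mitochondrial Bcat2 fell by 0.78 ± 0.13. Lower members of this list were 10 with median centring and 10 without the replicate 3 pair.

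Fatty acid oxidation and peroxisome genes leaned down further, with 4 of 58 higher (6.9%) and 23 lower (39.7%). The background was 12.8% and 19.6%, and the list median was -0.42 (-0.31 with median centring). Amacr, which prepares branched fatty acids for oxidation, read 1168.1, 1341.7 and 1219.5 on the control arrays and 432.1, 377.1 and 339.3 on the EGF arrays (-1.64 ± 0.19). Acadm (-0.71), Hadh (-0.64), Echs1 (-0.69), Acaa2 (-0.46) and Cpt2 (-0.58), enzymes of mitochondrial oxidation, all fell by less than 2-fold. The 4 rises were acyl-CoA synthetases and the transferase Cpt1a. Acsl4, which activates arachidonic acid, read 2850.5, 2836.3 and 2759.6 on the control arrays and 18265.7, 17212.0 and 15087.1 on the EGF arrays (2.57 ± 0.13), and Acsl1 read 2654.7, 2407.7 and 2853.0 on the control arrays and 10160.1, 9801.0 and 10379.4 on the EGF arrays (1.93 ± 0.12). Acsl3 rose by 0.57 ± 0.18, and Cpt1a, which moves fatty acids toward mitochondria, by 0.63 ± 0.15. These 4 members act at the entry of the pathway, before the oxidation enzymes named above.

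Ubiquitin genes lay near the background, with 19 of 127 higher and 21 lower (median -0.05). Socs5, a substrate receptor known to target the EGF receptor, read 6656.1, 6124.2 and 5319.1 on the control arrays and 31528.7, 33104.0 and 29840.5 on the EGF arrays (2.38 ± 0.14). Klhl24, a substrate receptor that acts on intermediate filaments, read 1359.1, 1473.4 and 1529.1 on the control arrays and 322.3, 244.8 and 284.8 on the EGF arrays (-2.27 ± 0.18). Smurf1, a ligase of bone morphogenetic protein signalling, rose by 1.01 ± 0.14, and the deubiquitinase Cyld, an inhibitor of NF-kB, fell by 0.75 ± 0.25.

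Apoptosis regulators changed in both directions, with 11 of 60 higher (18.3%) and 14 lower (23.3%), against 12.8% and 19.6% of all genes (median -0.18). Bcl2l11, the death activator Bim, read 6823.2, 6615.1 and 6524.3 on the control arrays and 1841.9, 1646.8 and 1491.7 on the EGF arrays and fell by 1.99 ± 0.16. Mcl1, which restrains death activators, read 9058.6, 10383.0 and 13053.2 on the control arrays and 32938.2, 40812.3 and 48949.6 on the EGF arrays (1.91 ± 0.17). Cflar, which blocks caspase 8, rose by 1.37 ± 0.30, and the death activators Bbc3 (-0.77) and Fas (-1.25) and the caspase activator Apaf1 (-0.80) fell. Other members went against this order. The death activator Bid rose by 1.46 ± 0.13, caspase 8 (Casp8) by 0.81 ± 0.18 and the death-associated kinase Dapk2 by 3.19 ± 0.35. Tnfrsf12a, the receptor of the ligand TWEAK, read 7577.8, 7960.3 and 6653.2 on the control arrays and 40195.7, 45028.1 and 46692.3 on the EGF arrays (2.57 ± 0.17), and Phlda1 rose by 3.57 ± 0.66 from 25.5, 205.6 and 86.9 (2.85 with an offset of 96.8). Without the replicate 3 pair 9 members were lower. Another probe set of Bcl2l11 did not pass.

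DNA repair and damage response genes leaned down. Of 70 tested 3 rose (4.29%) and 28 fell (40%), against 12.8% and 19.6% of all genes. The median was -0.46 against -0.17 for all genes. Xpa, which verifies damage in nucleotide excision repair, read 1659.1, 1884.5 and 1737.4 on the control arrays and 480.7, 439.8 and 582.9 on the EGF arrays (-1.77 ± 0.16). Rev3l, the catalytic subunit of a polymerase that copies past damage, read 2244.0, 2218.6 and 2580.2 on the control arrays and 774.3, 611.2 and 994.1 on the EGF arrays (-1.56 ± 0.22). Ercc5, an excision nuclease, fell by 1.52 ± 0.21, and Msh3, of mismatch repair, by 1.13 ± 0.26. All 3 sestrins, which restrain growth signalling under stress, fell: Sesn1 read 1108.9, 1098.7 and 947.2 on the control arrays and 567.2, 371.1 and 362.7 on the EGF arrays (-1.26 ± 0.21), with -0.93 for Sesn2 and -1.22 for Sesn3. Ercc1, also of excision repair, was the largest exception at 1.32 ± 0.13, from 2172.2, 2353.9 and 2538.6 to 5716.3, 5800.9 and 6186.7. The lower count was sensitive to scaling and to arrays: 15 with median centring, 18 with quantile normalization, 14 without the replicate 3 pair, 16 without EGF replicate 1 and 17 without EGF replicate 2. With median centring the median was -0.35.

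Microtubule genes were mixed, with 11 of 64 higher (17.2%) and 13 lower (20.3%), near the background of 12.8% and 19.6% (median -0.09). All 7 tested alpha and beta tubulins lay above 0 and 4 rose, with Tubb6 the largest from 4762.7, 5200.4 and 6607.7 to 16457.7, 17121.5 and 17925.8 (1.64 ± 0.17). Map1b, which stabilises microtubules, read 5889.9, 5214.1 and 4425.1 on the control arrays and 21565.1, 22603.5 and 20947.4 on the EGF arrays (2.07 ± 0.14). The kinesin Kif26b fell by 2.44 ± 0.38, from 2877.7, 3126.1 and 3291.3 to 570.8, 588.7 and 494.9. Of its 3 tested probe sets, 1 gave -0.02 without passing (adjusted p = 0.978, limma). The fit without EGF 12 h replicate 3 called 20 lower members.

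Primary cilium and Hedgehog genes leaned down. The primary cilium is a single antenna of resting cells, built by intraflagellar transport, through which Hedgehog signals pass. Of 56 tested members 19 fell (33.9%) and 1 rose (1.79%), against 19.6% and 12.8% of all genes. The median was -0.45 (-0.34 with median centring). Cc2d2a, of the gate at the base of the cilium, read 967.0, 1151.0 and 1156.2 on the control arrays and 439.4, 250.9 and 112.7 on the EGF arrays (-2.10 ± 0.33). Of 14 listed intraflagellar transport genes 5 fell and 0 rose, among them Ift46, which read 2282.5, 2415.1 and 3244.3 on the control arrays and 948.5, 994.7 and 1377.1 on the EGF arrays (-1.24 ± 0.18). Of 10 Bardet-Biedl genes, which sort cargo into the cilium, 6 fell and 0 rose, with Bbs4 at -1.34 ± 0.26.

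On the Hedgehog side, 3 of 7 listed receptors, co-receptors and Gli factors fell and 0 rose, while 4 were not called and 2 lay above 0. Of all genes 19.6% fell and 12.8% rose. The falls were the co-receptors Cdon and Gas1 and the transducer Smo. Cdon read 864.9, 844.0 and 1410.4 on the control arrays and 260.6, 224.3 and 318.7 on the EGF arrays (-1.84 ± 0.44) and Gas1 983.4, 801.9 and 543.1 on the control arrays and 274.5, 88.1 and 254.1 on the EGF arrays (-1.89 ± 0.57), both on uneven arrays. Smo read 2157.4, 1682.1 and 1630.1 on the control arrays and 1170.2, 1033.8 and 720.4 on the EGF arrays (-0.90 ± 0.19). The 1 rise of the list was Pkd2, a calcium channel of the cilium (0.80 ± 0.19), where another probe set did not pass. The lower count was 30 in a fit that blocks on the set of arrays.

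ATP-binding cassette transporters and common reference genes were counted last. Of 22 transporters 3 rose and 0 fell, the falls under the background of 19.6%. The fit without EGF 12 h replicate 3 called 5 higher and 2 lower, and 1 was lower without the replicate 3 pair or control replicate 3. The largest rise was the cholesterol exporter Abcg1 at 1.29 ± 0.28, whose other probe set gave -0.01 without passing. Of 20 genes often used as references 3 rose and 3 fell (15% each, against 12.8% and 19.6% of all genes). Without EGF replicate 2, 1 fell. The transferrin receptor Tfrc read 1660.7, 1453.1 and 1683.3 on the control arrays and 7797.3, 7237.0 and 7580.7 on the EGF arrays (2.22 ± 0.15), lactate dehydrogenase Ldha rose by 0.94 ± 0.14, and Gusb fell by 0.73 ± 0.17.

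The markers of other cell types give values to set beside these groups. Of the oligodendrocyte markers, Mbp read 2355.8, 2423.6 and 2108.2 on the control arrays and 785.5, 990.0 and 1154.1 on the EGF arrays (-1.23 ± 0.19), while its other probe set gave -0.23 without passing (adjusted p = 0.799, limma), and Cnp fell by 0.99 ± 0.17. Cspg4 read 459.1, 447.1 and 413.8 on the control arrays and 1055.4, 1018.2 and 884.2 on the EGF arrays and just missed the threshold (1.12 ± 0.40, adjusted p = 0.0521, limma), Mag did not pass, and Olig1, Olig2, Sox10 and Mog were dim. Of the microglia markers, Cd14 rose by 0.74 ± 0.16, Aif1, Cd68, Csf1r and Fcer1g did not pass, and Itgam, Ptprc, Cx3cr1 and Tyrobp were dim. Cd68, at 34.5 to 141.9, passed the filter of 215 only with the 12 h arrays included. Of the neuron markers, Gap43 rose by 1.09 ± 0.33 at signals of 50.7 to 327.5, having passed the filter of 215 only with the 12 h arrays included, and 8 of the 11 were dim. Without the replicate 3 pair Gap43 did not pass (adjusted p = 0.156, limma). The markers of oligodendrocytes summed to 6501.6 to 7554.7 on the control arrays and 4207.3 to 4954.3 on the EGF arrays, those of microglia to 4647.7 to 5163.5 on the control arrays and 6550.6 to 7974.5 on the EGF arrays and those of Schwann cells to 18068.2 to 19910.9 on the control arrays and 28257.6 to 29902.7 on the EGF arrays. Most of the rise in the last 2 sums came from 1 member each, Cd14 and Egr2. Of the other tested Schwann cell markers Prx (-0.38 ± 0.18), Pmp22 (0.18 ± 0.13) and S100b (-0.15 ± 0.36) did not pass. Their part in the differences was not tested.

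Called changes under 2-fold were named by their p. Among them, the 5 rises with the smallest p were Hsph1, a chaperone (0.91 ± 0.11), Kpnb1, Sfpq, the signalling adaptor Card19 (0.88 ± 0.11) and Mybbp1a, a nucleolar protein (0.90 ± 0.12). Hsph1 read 10192.3, 9973.7 and 10299.9 on the control arrays and 18751.3, 19259.8 and 19356.8 on the EGF arrays. The 5 falls were Plpp1, a lipid phosphatase (-0.94 ± 0.12), the developmental factor Sox4 (-0.78 ± 0.10), the membrane protein Emp2 (-0.82 ± 0.11), Zc3h14, which binds poly(A) (-0.76 ± 0.10), and Trappc2b, of vesicle tethering (-0.86 ± 0.12). Sox4 read 20590.2, 20147.8 and 19224.9 on the control arrays and 11489.3, 12652.8 and 10904.8 on the EGF arrays. Some of the other probe sets of Sox4, and the other of Emp2, did not pass.

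A difference near 0 was bounded for some genes. The 5 with the 95% interval closest around 0 were Vamp3 (-0.23 to 0.21), Copb1 (-0.23 to 0.23), Cltc (-0.19 to 0.24), Shisa5 (-0.25 to 0.24) and Jpt1 (-0.25 to 0.24). Vamp3, Copb1 and Cltc serve vesicle fusion, the coat of Golgi vesicles and the clathrin coat. Cltc read 25654.0, 26264.2 and 25130.7 on the control arrays and 27748.3, 25669.4 and 24916.3 on the EGF arrays, with overlap. For 15 genes (0.146%) the interval lay within 1.2-fold of no difference, and for 2071 (20.2%) within 1.5-fold. Of the 6932 genes that were not called, 1832 had an interval that reached past 2-fold, so a missing call does not show that a gene was steady.

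The replicate 3 pair and replicates 1 and 2 were compared directly. Of 18625 probe sets 0 differed in their EGF effect between the sets after adjustment (0%, limma), 466 had an unadjusted p under 0.05, and 2 passed with no intensity trend. The sets hold 1 and 2 pairs, and the lone pair is assumed to vary like the other arrays. With so few pairs, the lack of a passing difference does not show that the sets agreed. The median size of the effect over called genes was 0.87 in replicates 1 and 2 and 0.85 in the replicate 3 pair. The called genes were chosen by a fit to these same arrays, which favours like effects in both sets. Neither these sizes nor the few opposite signs below show that the sets agreed. In 5 called genes, named after their values were seen, the replicate 3 pair had the opposite sign to replicates 1 and 2: Garnl3 (0.22 against -3.50), Gmppa (0.05 against -1.23), Gpc3 (0.06 against -1.25), Sgsm3 (0.02 against -1.01) and Trmo (0.03 against -1.88).

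**Figure D5:**
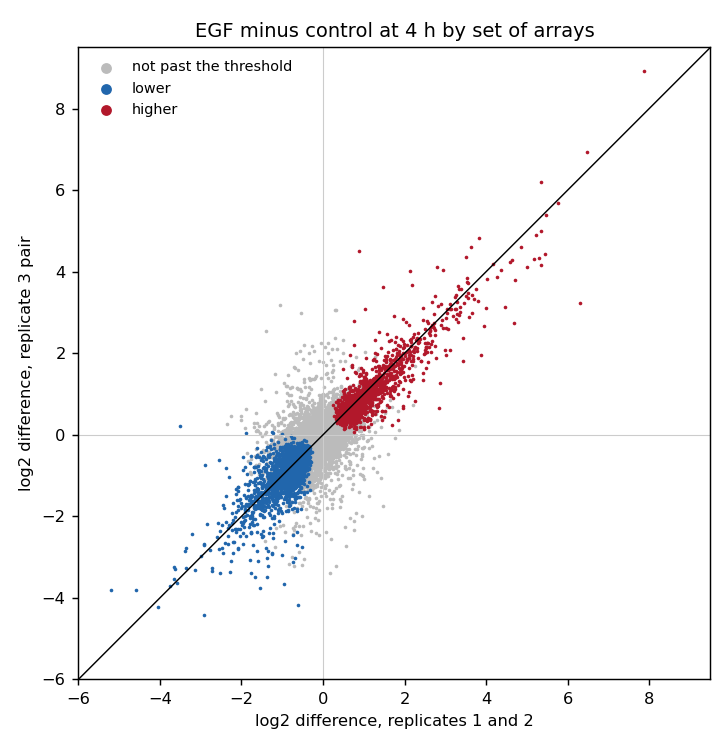
Log2 difference of EGF against control in the replicate 3 pair (y axis) against that in replicates 1 and 2 (x axis), 1 point per gene tested, with the line of equality. Genes that were not called are grey. Both axes are on the scale of log2(signal + 24.4), and 5 of the 3329 called genes lie in the quadrants of opposite sign. The called genes were chosen on these same arrays, which favours like signs.

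Probe sets of 1 gene did not always give the same call. The called genes had 1513 other tested probe sets, of which 612 were called the same way, 898 were not called and 3 were called the other way. The 3 genes were Ppp2r5c (-0.52 and 0.64), Prdm2 (-0.70 and 0.89) and Lrrc71 (-0.71 and 0.97), named after their values were seen, with the value of the brightest probe set first.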

How the data were processed

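RNA of 12 arrays (3 in each of EGF and control at 4 h and at 12 h) was measured. Each deposited value is a linear intensity of 1 probe set on 1 array, computed by the authors with MAS5, as the submitters' processing notes say without a version. Trimmed means of 1500.46 to 1500.56 and medians of 305.5 to 415.2 show arrays scaled to a common mean. Of 31099 probe sets, 57 controls and 12417 dim ones (mean over all arrays under the 40th percentile, 215) were left out. Log2(signal + 24.4, the 10th percentile) of 18625 probe sets was modelled by limma 3.58.1 (R 4.3.3) on the 12 arrays in 4 groups, with an intensity trend and 8 residual degrees of freedom, tested two-sided with Benjamini-Hochberg adjustment at 0.05, and checked on simulated data. Effects of the replicate 3 pair and of replicates 1 and 2 were compared with 6 residual degrees of freedom. Figures were drawn with matplotlib 3.10.9.

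Names came from the platform's annotation, where 20832 probe sets had 1 symbol, 436 several and 9831 none, and 20764 matched the current gene table. The 14253 tested probe sets with 1 gene gave 10261 genes. The members and lists were chosen with earlier results of these data known. The rule named Egfr, the rises and falls ranked 11 to 20 among called genes without overlap, the largest called rise and fall of each list (the smallest p where none passed), the 5 called changes under 2-fold with the smallest p in each direction, the 5 intervals closest around 0, up to 5 differences between sets in each direction (0 passed) and genes whose promoter is printed. Other list members could be named with values.

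Same-numbered EGF and control arrays of 4 h correlated, after the group means were removed, at 0.121, 0.15 and 0.376. Each was over 0.1, and the design describes sister cultures, so the numbers were taken as pairs and the replicate block was tried. For replicates 1 and 2 the correlation with the other number was as high (0.138 and 0.142). Alternatives changed the normalization, offset, filter, arrays, block and trend, and left out each 4 h array in turn. All 12 sample columns were used. The number of arrays limits the precision.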

Additional observations from a re-analysis of the deposited data

Results flagged for a closer look

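The effect of EGF differed between 4 and 12 h for 2153 probe sets (11.6%, limma interaction, adjusted p under 0.05), and 100 genes were called in opposite directions. Among the named genes of opposite calls, the difference (4 h minus 12 h) was 1.04 for Egfr, from 0.54 at 4 h to -0.51 at 12 h. For Fos it was -3.45, from -2.91 to 0.54. For the matrix protein Postn it was 1.09, from 0.54 to -0.55. The arrays of 12 h other than EGF replicate 3 differed from those of 4 h in the actin 3′ to 5′ ratio (11.1 to 21.7 against 1.2 to 1.61), and the part of this in the differences between times was not tested.

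The mean signal of the bacterial hybridisation controls was 21217 on EGF replicate 3 and 23645 on control replicate 3 of 4 h, against 49.6 to 111 on the other 10 arrays. These probe sets were outside the tests. Single outlying arrays were not tested for in these groups of 3.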

How the results depend on the processing

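The 2118 higher and 3068 lower probe sets stayed within 1.5-fold under all alternatives but 1. Blocking on the set of arrays, the lower count was 4960 (higher 3103). Leaving out each 4 h array gave 1631 to 1902 higher and 2233 to 2745 lower, and leaving out the replicate 3 pair 1669 and 2109. The 4 h arrays alone gave 2603 and 3830. Leaving out EGF 12 h replicate 3 gave 2697 and 4181, and the median SE went from 0.23 to 0.19. The actin 3′ to 5′ ratio of that array was 1.24, against 18.1 and 20.5 on the other EGF arrays of 12 h. With no intensity trend, 2 probe sets differed between the sets of arrays in place of 0. The causes were not tested. The replicate block, which uses the pairing, gave 2144 higher and 3076 lower and changed the call of 1 named gene and no other, Ampd3 (adjusted p = 0.0528, limma).

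Of 94 named genes tested for a change, all called but Slc1a3, 8 lost the call in at least 1 fit (Map2k6, Twist2, Mrpl14, Aaas, Ampd3, Polr2a, Gap43 and Postn). Another probe set reversed the sign of Med31 (0.19), Abcg1 (-0.014) and the uncalled Slc1a3 (-0.56). Genes near background on one side are limited by the offset.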
